A study of Mus musculus with 158 samples.

Results

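Pool 4 of an in vivo RNA interference screen is described here: 51 short hairpin RNAs (shRNAs) against 21 mouse genes, followed from the infected cells at day 0 into lung tumours and into a parallel culture. The members were chosen as the hairpins that the deposited tables assign to pool 4, read in the 3 day 0 libraries, the 3 lung libraries and the 3 culture libraries that carry that pool. They make up 51 of the 1000 targeting hairpins, 21 of the 285 targeted genes and 9 of the 158 libraries of the series. Of the genes, 6 had 4 hairpins in the pool, 1 had 3, 10 had 2 and 4 had 1, so hairpins against the same gene share their target and are not replicates of a condition. For 7 of the genes, with 27 hairpins, every hairpin of the series was in pool 4, and the other 14 genes also had hairpins in other pools.

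All groups were cells of the mouse pancreatic ductal adenocarcinoma line PDA530 Met, infected with the pooled virus at a multiplicity of infection of 0.3 and selected for 4 days in puromycin at 3 µg/ml. The day 0 group was a set of cell pellets taken at the start, labelled 4A, 4B and 4C. For the lung group, cells of the pool went into the tail vein of 3 mice, and after 28 days all lung tumours of a mouse were combined into 1 library, labelled A, B or C. The culture group was kept in dishes for 28 days, and each of its libraries held pools 4 and 5 together. All groups therefore carried the same hairpins and the same selection, the line is a single cell line, and tail-vein injection places cells in the lung without an earlier tumour of origin. No label says that the day 0 pellets or the dishes came from separate infections, so p-values measure only the spread between these libraries, which may be technical outside the mice. A cell type check against marker genes does not apply, since only hairpin sequences in genomic DNA were counted.

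An shRNA is processed by the cell into a small RNA that directs the cleavage of its target's messenger RNA. In a pooled screen each cell and its descendants carry an integrated hairpin, so the share of a hairpin among all reads follows the share of cells that carry it. A hairpin whose share falls is carried by fewer of the cells at the end, and a hairpin whose share rises is carried by more of them. The pool's genes span growth signalling (Braf, Egfr), the cell cycle (Cdkn2b), transcription (Klf5, Elk3), the extracellular matrix and cell adhesion, membrane traffic, metabolism, ion channels and large scaffold proteins.

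The libraries held between 6917804 and 9319125 reads. Of these, pool 4 hairpins took 4316173 to 5232378 reads at day 0, 2426298 to 3329206 reads in culture and 3935637 to 3981153 reads in the lungs. The 8 control hairpins that were added to the pools took 42.6 to 45.5% of the reads at day 0 and in the lungs and 34.4 to 37.9% in culture, where pool 5 took another 28.4 to 31.7%. Hairpins of pools that these libraries should not hold took 0.402, 0.0802 and 0.135% of reads in day 0 libraries A, B and C, 0.161, 0.0368 and 0.0682% in culture, and 0.697, 0.169 and 0.457% in the lungs. Lung libraries A and C were thus above every day 0 library in this measure, and its part in the results was not tested. PCR reads without molecular identifiers are not independent molecules, so a count gives counting error only.

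The pool was almost fully represented at the end. All 51 hairpins had reads in each day 0 library, 51, 50 and 49 in culture libraries A, B and C, and 49, 48 and 50 in lungs A, B and C. All 51 passed the filter on low values, a mean of at least 10 reads. Shares below are percent of the pool 4 targeting reads of a library.

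Reads were spread less evenly over the hairpins in both end states than at the start. The effective number of hairpins (the number of equally frequent hairpins that would give the same entropy) was 29.6, 30.5 and 29.5 in day 0 libraries A, B and C. It was 21.6, 21.8 and 23.8 in culture and 21.4, 24.8 and 21.3 in the lungs, so neither end state overlapped with day 0, while the end states overlapped with each other. The difference from day 0 was -7.37 in the lungs and -7.46 in culture, and 0.0906 between lungs and culture, with exact two-sided permutation p-values of 0.1, 0.1 and 1 (n = 3 against 3, where 0.1 is the smallest p possible). Mean effective numbers of 22.4 in culture and 22.5 in the lungs stood beside medians of 21.9 over 18 pools and 22.5 over 17 pools. The 5 most frequent hairpins held 31.1 to 33.1% of the reads at day 0, 44.3 to 48.8% in culture and 41.0 to 48.4% in the lungs.

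Lung libraries differed from each other more than the other groups did. Pearson's r of log2 values over the 51 hairpins lay between 0.994 and 0.996 for pairs of day 0 libraries, between 0.918 and 0.943 for pairs of culture libraries and between 0.850 and 0.893 for pairs of mice, as a description across hairpins of libraries that share 1 starting population. Among the 43 hairpins with at least 0.1% at day 0, the highest share of a replicate set was at the median 1.14 times the lowest at day 0, 1.39 times in culture and 2.10 times in the lungs. The ratio passed 5 for 0 hairpins at day 0, 2 in culture and 11 in the lungs. Its highest lung value, 32.0, belonged to TRCN0000055222, a hairpin against Egfr. In lungs A the most frequent hairpin was TRCN0000088313 against Dst with 17.0%, whereas in lungs B and C it was TRCN0000054986 against Axin1 with 12.9 and 13.3%. The mean r between the mice, 0.865, lay within the range of the 17 pools with lung libraries (0.712 to 0.952, median 0.903), with 10 pools above it.

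Comparing lungs with day 0 asks which hairpins gained or lost share during 28 days in the animal. Of the 51 hairpins, 20 passed an adjusted p of 0.05 (limma's moderated test on log2 CPM, reads scaled to a common total, with Benjamini-Hochberg adjustment across the hairpins tested in every pool), 9 higher and 11 lower. That is 39.2%, beside 33.8% of the 891 hairpins tested in the series (14.7% higher and 19.1% lower), and 4 of the 17 pools had a higher percentage, so the count is close to the background. With the replicate letter as a block, 16 passed, 5 higher and 11 lower. The median log2 difference in the main fit was -0.54 in pool 4 and -0.13 over all hairpins tested. The strongest losses by adjusted p were hairpins against Dpp6 and Klf5, and the largest rise on the log2 scale was a hairpin against Cdkn2b. None of the 20 changed sign under any of the scalings tried. Their shares did not overlap between lungs and day 0, but neither did those of some hairpins that did not pass. Elk3 TRCN0000042643 and Cdkn2b TRCN0000042599 were among the latter, and non-overlap was not counted over all pools.

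Comparing culture with day 0 gives the change over the same 28 days without an animal. Here 34 of 51 passed the same limma threshold, 17 higher and 17 lower, or 66.7% beside 60.6% of 945 hairpins in the series (28.8% higher and 31.9% lower). With 8 of 18 pools above it, this too was close to the background. With all groups in 1 fit, which share an estimate of spread, 18 of these hairpins passed. The median log2 difference was -0.08 in pool 4 and -0.10 over all hairpins tested. More hairpins passed in culture than in the lungs in the main fits, beside a smaller spread between culture libraries. With all groups in 1 fit the order turned, with 23 in the lungs and 18 in culture. The direct comparison of lungs with culture gave 12 calls of 51, 8 higher in the lungs and 4 lower, which is 23.5% beside 24.9% of 889 in the series (11.6% higher and 13.3% lower). The medians were 0.19 and -0.11. The split did not hold in every setting: it was 6 higher and 10 lower without lungs C, 2 and 3 without culture A, and 8 and 13 with all groups in 1 fit.

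The log2 values depend on a scaling factor (TMM, which sets the bulk of hairpins to no change) that adds 0.20 to a lungs difference, 0.51 to a culture difference and 0.31 to a difference between lungs and culture, relative to plain shares of the pool. With plain shares the pool 4 medians were -0.74, -0.59 and -0.11. The split of calls moved with the scaling. For lungs against day 0, 45.0% of calls were higher under TMM, 38.1% with plain shares, 33.3% on the deposited values and 29.4% relative to the control hairpins. The count models on the recovered reads gave larger shares, 50.0% in edgeR (10 of 20) and 59.3% in DESeq2 (16 of 27). Whether higher or lower calls were in the majority thus depended on the method. The hairpins called in the main fit kept their direction, and the split moved through hairpins gained or lost. For culture against day 0 the same shares were 50.0, 34.2, 17.6 and 14.7%, and for lungs against culture 66.7% under TMM, 53.3% with plain shares and 76.9% relative to the controls. In the culture libraries the control hairpins also serve pool 5, so that scaling sets the controls of both pools against pool 4 alone. Relative to plain shares it lowers the culture differences from day 0 by a median of 0.47, and the deposited values lower them by a median of 0.35. Rare hairpins with 0 reads in a library move by other amounts. Calls lost or signs turned by these scalings in culture come with that shift of the pool. Calls as higher under TMM come in the same way with its shift of 0.51, so the direction of a small culture change depends on the scaling. With plain shares, 8 further hairpins passed in culture, 2 in lungs against day 0 and 3 in lungs against culture, all as lower, and 4, 1 and 0 calls were lost. Ratios written as times higher or lower are ratios of mean shares, and log2 differences are on the TMM scale unless another is named.

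Both comparisons with day 0 use the same 3 day 0 libraries, so their values are set side by side only. Of the 51 hairpins, 14 passed in both: 6 lower in both, 5 higher in both and 3 in opposite directions. That is 27.5%, beside 24.4% of the 891 hairpins tested in both over all pools (12.7% lower in both, 7.86% higher in both and 3.82% opposite). With plain shares the pool 4 counts were 9, 3 and 2 (17.6, 5.88 and 3.92%), beside 21.3, 2.81 and 4.49% over all pools. Under TMM a further 6 passed in the lungs only, 20 in culture only and 11 in neither. These were 11.8, 39.2 and 21.6% of pool 4, beside 9.43, 36.9 and 29.3% over all pools. Passing in the lungs only or in culture only does not show a difference, for which the direct comparison of lungs with culture is the test.

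Braf, the kinase between Ras and Mek, had 2 hairpins that moved in opposite directions in the lungs. TRCN0000054346 had shares of 4.53, 4.78 and 4.69% at day 0, 4.25, 3.87 and 4.93% in culture and 6.85, 9.07 and 7.84% in lungs A, B and C. Every lung library was above every other library. The lung mean of 7.92% ± 1.11 (SD, n = 3) was 1.70 times the day 0 mean of 4.67% ± 0.125, a log2 difference of 0.95 ± 0.13 (SE; limma adjusted p 0.0042), and 1.82 times the culture mean (log2 1.17 ± 0.18, limma adjusted p 0.00297). The call against culture was lost without culture A (limma adjusted p 0.145), without lungs A (0.0501) and with a filter at 100 reads (0.0525), in a range of 1.18e-06 to 0.145 over 18 alternatives. In culture the same hairpin passed as higher by 0.41 on the TMM scale although its mean share was 0.933 times that of day 0 and the shares overlapped. With plain shares that value was -0.11, and on the deposited values it passed as lower (log2 -0.46, limma adjusted p 0.0066).

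The other Braf hairpin, TRCN0000054345, was rare from the start, with 2403, 2747 and 2874 reads at day 0. It had 0 reads in lungs A and B and 210 reads in lungs C, and 4196, 268 and 1083 reads in culture. The mean lung share was 32.5 times below that of day 0, and the fitted log2 difference of -7.11 ± 1.77 (SE) depends on the pseudocount. Its limma adjusted p was 0.0286, edgeR's was 0.184, and without lungs A or B or any day 0 library it lay between 0.0519 and 0.0755, in a range of 0.0011 to 0.184 over 18 alternatives. In culture its shares overlapped with those of day 0 (log2 -0.06, limma adjusted p 0.967).

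Egfr, the receptor of epidermal growth factor, had no call in the lungs. TRCN0000055222 had 0.673, 0.682 and 0.656% at day 0, 2.53, 5.54 and 1.52% in culture and 0.080, 2.56 and 0.648% in the lungs. The lung libraries lay on both sides of day 0, with A low and B high. In culture every library was above day 0, with a mean 4.76 times higher (log2 2.56 ± 0.44 SE, limma adjusted p 0.00135), a call lost in the fit of all groups (0.0983), in a range of 1.83e-09 to 0.0983. TRCN0000055221 fell in culture by 0.58 on the log2 scale (limma adjusted p 0.00187, and 0.123 in the fit of all groups), from a day 0 mean of 3.31% to 1.57%, and ranged from 1.29 to 3.50% in the lungs. Together the 4 hairpins of growth signalling gave 1 call higher and 1 lower in the lungs and 2 higher and 1 lower in culture, which with so few hairpins is not far from the 33.8 and 60.6% called in the series.

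Cdkn2b, an inhibitor of the cyclin-dependent kinases that start the cell cycle, had the largest rise in the lungs on the log2 scale. TRCN0000042600 had 0.0703, 0.0894 and 0.0497% at day 0, 0.0421, 0.0501 and 0.0431% in culture and 0.256, 0.432 and 0.467% in the lungs. The lungs did not overlap with either group. The lung mean was 5.52 times that of day 0 (log2 2.65 ± 0.40 SE, limma adjusted p 0.00538) and 8.54 times that of culture (log2 3.35 ± 0.43 SE, limma adjusted p 0.00146). Both calls held in all 18 alternatives. In reads, the lungs had 10210, 17012 and 18394 and day 0 had 3677, 3860 and 2239. The other hairpin, TRCN0000042599, had 0.0787 to 0.0922% at day 0 and 0.121 to 0.334% in the lungs, without overlap, and did not pass (log2 1.46 ± 0.46 SE, limma adjusted p 0.0536). It overlapped with day 0 in culture, and its difference between lungs and culture did not pass either (log2 0.84, limma adjusted p 0.374).

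Klf5, a zinc-finger transcription factor of epithelial cells, was the gene with more than 1 hairpin lower in the lungs. TRCN0000055286 had 1.62, 2.06 and 1.52% at day 0, 0.322, 0.336 and 0.403% in culture and 0.302, 0.299 and 0.281% in the lungs. It was low in every library of both end states, at 5.90 times below day 0 in the lungs (log2 -2.35 ± 0.21 SE, limma adjusted p 0.000951) and 4.91 times below in culture (log2 -1.78 ± 0.16 SE, limma adjusted p 1.99e-05). TRCN0000055287 had 3.44, 3.25 and 3.44% at day 0, 0.838, 0.694 and 0.711% in culture and 0.929, 1.24 and 0.973% in the lungs. It too was low in both end states, 3.22 times below day 0 in the lungs (log2 -1.5 ± 0.15 SE, limma adjusted p 0.00134) and 4.51 times below in culture (log2 -1.67, limma adjusted p 9.49e-06). Lungs and culture did not differ past the threshold for either hairpin (log2 0.05 and 0.79, limma adjusted p 0.92 and 0.093).

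Another Klf5 hairpin differed between the end states. TRCN0000055284 had 0.0738, 0.115 and 0.145% at day 0, 0.00841, 0.0101 and 0.0521% in culture and 0.887, 0.141 and 0.219% in the lungs. All lung libraries were above all culture libraries, with lungs A far above B and C, while lungs and day 0 overlapped. The difference between lungs and culture was 4.49 ± 0.96 on the log2 scale (SE, limma adjusted p 0.0125) and was lost without lungs A (0.0611), lungs C (0.0699) or culture A (0.0575), in a range of 0.000133 to 0.0699 over 18 alternatives. Its fall in culture (log2 -2.18, limma adjusted p 0.0325) was lost in edgeR (0.0726), without day 0 B (0.105), without day 0 C (0.118) and without culture B (0.0701), and in the fit of all groups together (0.0727), in a range of 0.00182 to 0.118. TRCN0000055285, the most frequent of the 4 at day 0, had 5.31, 4.65 and 5.37% there, 2.42, 3.60 and 4.19% in culture and 3.70, 2.19 and 3.36% in the lungs. It was below day 0 in every library of both end states and did not pass on the TMM scale. With plain shares its culture value was lower and passed (log2 -0.62, limma adjusted p 0.0222).

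Elk3, an ETS-domain transcription factor, had 1 hairpin, TRCN0000042643. Its shares were 2.27, 2.21 and 2.32% at day 0, 1.95, 2.34 and 2.04% in culture and 1.57, 1.85 and 1.72% in the lungs. The lungs were the lowest group, but the difference from day 0 was small (log2 -0.21 ± 0.13 SE, limma adjusted p 0.268). In culture it passed as higher (log2 0.41, limma adjusted p 0.0271) with overlapping shares, turned to -0.11 with plain shares, and was lost when any single library was left out (limma adjusted p 0.0655 to 0.263). On the deposited values it passed as lower (log2 -0.46, limma adjusted p 0.0046).

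Axin1, the scaffold of the complex that marks beta-catenin for destruction, had hairpins that rose together in culture and parted in the lungs. TRCN0000054983 had 7.20, 6.85 and 6.99% at day 0, 17.7, 13.9 and 12.7% in culture and 1.5, 2.23 and 2.08% in the lungs. The 3 groups did not overlap, with culture highest and lungs lowest. Relative to day 0 the mean was 2.11 times higher in culture (log2 1.57 ± 0.16 SE, limma adjusted p 4.21e-05) and 3.62 times lower in the lungs (log2 -1.68 ± 0.18 SE, limma adjusted p 0.00176). The direct difference, 7.62 times lower in the lungs than in culture (log2 -2.63 ± 0.27 SE, limma adjusted p 0.000469), passed in all 18 alternatives.

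TRCN0000054986 had 5.55, 5.38 and 5.57% at day 0, 13.7, 15.8 and 13.1% in culture and 8.21, 12.9 and 13.3% in the lungs. Both end states were above day 0 in every library and overlapped with each other. The rise was 2.09 times in the lungs (log2 1.23 ± 0.19 SE, limma adjusted p 0.00555) and 2.59 times in culture (log2 1.88 ± 0.14 SE, limma adjusted p 5.13e-06). The difference between the end states was -0.03 ± 0.23 on the log2 scale (limma adjusted p 0.937). The mean shares of these 2 Axin1 hairpins were 7.01 and 5.50% at day 0 and 1.94 and 11.5% in the lungs.

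The remaining Axin1 hairpins were rarer. TRCN0000054984 had 0.550, 0.521 and 0.460% at day 0, 0.305, 0.0745 and 0.157% in culture and 0.363, 0.283 and 0.0447% in the lungs, below day 0 in every library of both end states. Its culture value passed (log2 -1.22, limma adjusted p 0.0454), was lost in 10 of 18 alternatives, among them without day 0 A (0.0948), B (0.122) or C (0.0654) and without culture B (0.0506) or C (0.0669), and ranged from 0.00055 to 0.206. TRCN0000054985 did not pass on the TMM scale with all libraries (in culture, limma adjusted p 0.0518, and 0.00318 as lower with plain shares), with 0.360, 0.366 and 0.430% at day 0, 0.211, 0.151 and 0.148% in culture and 0.159, 0.151 and 0.360% in the lungs, where C was the highest mouse.

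Among the 6 hairpins against matrix and adhesion genes, 2 fell and 0 rose in the lungs, a share equal to the 33.8% called in the series to within 1 hairpin, with a median log2 difference of -0.07 beside -0.13 over all hairpins. Pcdh15, a protocadherin, had 1 of them. TRCN0000094900 had 0.604, 0.702 and 0.610% at day 0, 0.330, 0.256 and 0.477% in culture and 0.0879, 0.109 and 0.169% in the lungs. The lungs were lowest and did not overlap with either group, 5.24 times below day 0 (log2 -2.24 ± 0.34 SE, limma adjusted p 0.00513). The difference from culture did not pass (log2 -1.24 ± 0.40 SE, limma adjusted p 0.0593), but did with plain shares (log2 -1.55, limma adjusted p 0.0305). The second Pcdh15 hairpin, TRCN0000094899, had 3.48 to 4.21% at day 0 and 1.74 to 4.97% in the lungs, on both sides of the start (log2 -0.00 ± 0.38 SE, limma adjusted p 0.994). In culture it fell to 1.65 to 2.00% (log2 -0.48, limma adjusted p 0.0121), a call lost without day 0 B (0.0604) and in the fit of all groups (0.227), in a range of 7.36e-07 to 0.227.

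Col5a1, a fibrillar collagen chain, had 1 hairpin, TRCN0000090002, with 1.79, 1.98 and 1.71% at day 0, 2.05, 1.80 and 2.10% in culture and 0.552, 0.913 and 0.760% in the lungs. The lungs were below both groups, and culture overlapped with day 0. The fall from day 0 was 2.46 times (log2 -1.13 ± 0.19 SE, limma adjusted p 0.00731). From culture it was 2.67 times (log2 -1.14 ± 0.30 SE, limma adjusted p 0.0312), and this call was lost without any single culture library (0.0803, 0.0893 and 0.0584 without A, B and C), and with the replicate letter as a block (0.0866), in a range of 6.66e-08 to 0.0893. Its culture value passed as higher on the TMM scale (log2 0.63, limma adjusted p 0.00167) and was 0.12 with plain shares (limma adjusted p 0.406) and -0.23 on the deposited values.

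Col11a1, another fibrillar collagen chain, had the single hairpin TRCN0000091193, which rose in culture. Its shares were 3.66, 3.29 and 3.79% at day 0, 7.58, 6.71 and 7.53% in culture and 3.22, 6.38 and 4.93% in the lungs. Every culture library was above every other library, and lungs overlapped with day 0. The culture rise was 2.03 times (log2 1.54 ± 0.092 SE, limma adjusted p 1.16e-06), while the lung value was 0.58 ± 0.25 (limma adjusted p 0.121).

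Adam8, a membrane-bound metalloprotease, had a hairpin that separated the lungs from culture. TRCN0000031784 had 3.22, 3.36 and 3.24% at day 0, 1.14, 0.701 and 1.69% in culture and 6.15, 3.29 and 7.62% in the lungs. Lungs A and C were above day 0 and lungs B was level with it, while all culture libraries were below. The lung mean was 4.83 times the culture mean (log2 2.58 ± 0.45 SE, limma adjusted p 0.00486), a call lost without lungs A (0.0514), lungs C (0.0722) or culture A (0.0694), in a range of 4.76e-05 to 0.0722 over 18 alternatives. Its fall in culture passed (log2 -1.05 ± 0.25 SE, limma adjusted p 0.00631) and its lung value did not (log2 0.91 ± 0.36 SE, limma adjusted p 0.102). TRCN0000031786 had 3.81 to 4.22% at day 0, 4.51 to 5.05% in culture and 2.51 to 3.61% in the lungs. It passed in culture only (log2 0.75, limma adjusted p 6.05e-05), and that value was -0.11 on the deposited values.

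Muc1, a transmembrane mucin of epithelial surfaces, was lower in both end states with its hairpin TRCN0000108855. It had 0.931, 1.24 and 0.981% at day 0, 0.391, 0.308 and 0.380% in culture and 0.147, 0.197 and 0.0810% in the lungs. The groups did not overlap, and the lungs were lowest. The fall was 7.41 times in the lungs (log2 -2.77 ± 0.40 SE, limma adjusted p 0.00429) and 2.92 times in culture (log2 -1.03 ± 0.17 SE, limma adjusted p 0.000936), and the difference between them did not pass under TMM (log2 -1.12 ± 0.43 SE, limma adjusted p 0.102) but did, among other settings, with plain shares (0.0417).

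Ehd1, an ATPase of endocytic recycling and the only gene of the membrane traffic group, had 2 of 4 hairpins higher in the lungs, and the same hairpins were higher in the lungs than in culture. TRCN0000093336 had 0.359, 0.437 and 0.406% at day 0, 0.372, 0.245 and 0.276% in culture and 1.22, 0.578 and 0.989% in the lungs. TRCN0000093337 had 2.66, 2.49 and 2.49% at day 0, 1.51, 1.70 and 2.22% in culture and 3.27, 6.48 and 3.58% in the lungs. For both, every lung library was above every library of the other groups, with B the lowest mouse for the first and the highest for the second.

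Against day 0, TRCN0000093336 was 2.32 times higher in the lungs (log2 1.35 ± 0.37 SE, limma adjusted p 0.0362). The call was lost with the replicate letter as a block (0.0733), on the deposited values (0.0607), relative to the controls (0.0691), without lungs A (0.0632) or C (0.0773) and without day 0 A (0.0856), B (0.0759) or C (0.0823), in a range of 0.000112 to 0.0856 over 18 alternatives. TRCN0000093337 was 1.74 times higher (log2 0.93 ± 0.26 SE, limma adjusted p 0.0407). That call was lost in 9 of 18 alternatives: with the block (0.0806), with plain shares (0.097), on the deposited values (0.0931), relative to the controls (0.0886), without the trend and robust options (0.0581), without lungs C (0.0506) and without day 0 A (0.0742), B (0.109) or C (0.106), in a range of 0.000672 to 0.109. Both Ehd1 rises from day 0 were therefore near the threshold.

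Against culture the same hairpins were 3.12 and 2.45 times higher in the lungs (log2 1.90 ± 0.40 and 1.55 ± 0.32 SE, limma adjusted p 0.0125 and 0.011). For TRCN0000093337 that call was lost without culture A (0.0989), in a range of 3.02e-05 to 0.0989. For TRCN0000093336 it was lost without lungs A (0.135), lungs C (0.134) or culture A (0.0789), in a range of 0.00117 to 0.135. Of the other Ehd1 hairpins, TRCN0000093334 had 3.09, 3.22 and 3.02% at day 0, 4.24, 4.26 and 4.46% in culture and 3.91, 4.19 and 9.20% in the lungs. Every library of both end states was above day 0, with lungs C highest. Its lung value did not pass (log2 0.97 ± 0.35 SE, limma adjusted p 0.0835), and its culture rise did (log2 0.99, limma adjusted p 1.03e-05), a value that was 0.13 on the deposited values. TRCN0000093335 had 0.148, 0.132 and 0.140% at day 0, 0.0316, 0.0412 and 0.0311% in culture and 0.0331, 0.103 and 0.00932% in the lungs. It was below day 0 in both end states, with a call in culture (log2 -1.51, limma adjusted p 0.0103) that was lost without day 0 A (0.0527), without day 0 C (0.0517) and in the fit of all groups (0.15), in a range of 3.52e-05 to 0.15.

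Acacb, an acetyl-CoA carboxylase that makes malonyl-CoA, had 2 of 4 hairpins higher in the lungs. TRCN0000028941 had 0.691, 0.796 and 0.720% at day 0, 0.175, 0.159 and 0.310% in culture and 1.41, 1.13 and 1.30% in the lungs. The 3 groups did not overlap, with lungs highest and culture lowest. The lung mean of 1.28% ± 0.139 (SD, n = 3) was 1.74 times that of day 0 (log2 0.99 ± 0.18 SE, limma adjusted p 0.0104), and the culture mean was 3.43 times below day 0 (log2 -1.33 ± 0.24 SE, limma adjusted p 0.0015). Between the end states the ratio was 5.98 (log2 2.95 ± 0.29 SE, limma adjusted p 0.000357), and it passed in all 18 alternatives. This hairpin had the lowest adjusted p of the pool in that comparison.

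TRCN0000028942 had 0.647, 0.662 and 0.656% at day 0, 0.972, 0.883 and 0.570% in culture and 1.09, 0.926 and 1.27% in the lungs. The lungs were above day 0 in every mouse and overlapped with culture. The lung rise was 1.67 times (log2 0.93 ± 0.21 SE, limma adjusted p 0.0208), lost with the replicate letter as a block (0.0594), relative to the controls (0.0541) and without day 0 B (0.0555) or C (0.0596), in a range of 5.14e-06 to 0.0596. In culture it passed (log2 0.78, limma adjusted p 0.022) with overlapping shares, and was 0.27 with plain shares (limma adjusted p 0.298) and -0.083 on the deposited values. That culture call was also lost without day 0 A (0.0529) or B (0.0604) and without culture A (0.114) or B (0.151), in a range of 0.00072 to 0.782.

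The rarer Acacb hairpins had lower means in the lungs and in culture than at day 0 and did not pass. TRCN0000028943 had 0.203, 0.197 and 0.263% at day 0, 0.0161, 0.0803 and 0.0988% in culture and 0.0204, 0.0966 and 0.0688% in the lungs, with log2 differences from day 0 of -1.89 in the lungs and -1.61 in culture (limma adjusted p 0.0587 and 0.0652). TRCN0000028940 had 1808, 1792 and 1698 reads at day 0, 154, 237 and 0 in culture and 873, 373 and 1332 in the lungs, with a lung log2 difference of -0.78 (limma adjusted p 0.409). The culture values of both passed as lower with the replicate letter as a block (limma adjusted p 0.0308 and 0.0356) and with plain shares (0.0237 and 0.0404), and the lung value of TRCN0000028943 passed with plain shares (0.0478).

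Slc6a15, a transporter of neutral amino acids, had a hairpin lower in both end states. TRCN0000079720 had 0.554, 0.722 and 0.513% at day 0, 0.222, 0.210 and 0.187% in culture and 0.0996, 0.129 and 0.0832% in the lungs. The groups did not overlap, and the lungs were lowest. Its fall was 5.75 times in the lungs (log2 -2.33 ± 0.31 SE, limma adjusted p 0.00357) and 2.89 times in culture (log2 -1.01 ± 0.22 SE, limma adjusted p 0.00426). The difference between lungs and culture did not pass under TMM (log2 -0.70 ± 0.41 SE, limma adjusted p 0.247) or with plain shares (0.0891). It passed in DESeq2 (adjusted p 0.00279). TRCN0000079722 had 0.157, 0.146 and 0.132% at day 0, 0.0316, 0.0151 and 0.0331% in culture and 0.186, 0.0095 and 0.0241% in the lungs. It fell in culture (log2 -2.01, limma adjusted p 0.00496, and 0.135 in the fit of all groups), while lungs A was above day 0 and lungs B and C were below it. TRCN0000079718 had 1.18, 1.12 and 1.14% at day 0, 4.41, 2.53 and 1.99% in culture and 2.63, 1.25 and 0.947% in the lungs. It rose in culture (log2 1.81, limma adjusted p 0.000747), a call lost on the deposited values (0.0543), and overlapped with day 0 in the lungs (log2 0.55, limma adjusted p 0.355).

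Dpep1, a membrane dipeptidase, had no call in any comparison on the TMM scale with all libraries. TRCN0000032459 had 0.312, 0.468 and 0.321% at day 0 and 1.69, 1.16 and 0.200% in the lungs, where A and B were above day 0 and C below it. TRCN0000032460 had 1.72 to 1.94% at day 0, 0.871 to 1.15% in culture and 0.328 to 1.71% in the lungs. Its culture shares were all below day 0, and the difference passed as lower with plain shares (log2 -0.85, limma adjusted p 0.000958) and not under TMM (log2 -0.34, limma adjusted p 0.0755).

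Dpp6, an auxiliary subunit of voltage-gated potassium channels, gave the strongest fall of the pool in the lungs by adjusted p. TRCN0000031426 had 3.21, 3.62 and 3.12% at day 0, 2.15, 2.61 and 2.41% in culture and 0.318, 0.351 and 0.228% in the lungs. The 3 mice were far below both groups and close to each other. The lung mean of 0.299% ± 0.0637 (SD, n = 3) was 11.1 times below day 0 (log2 -3.30 ± 0.21 SE, limma adjusted p 0.000314) and 8.00 times below culture (log2 -2.71 ± 0.29 SE, limma adjusted p 0.000631). Both calls held in all 18 alternatives. The culture shares were below day 0 without overlap, and this difference passed with plain shares (log2 -0.47, limma adjusted p 0.006) and not under TMM (log2 0.04 ± 0.13 SE, limma adjusted p 0.809).

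None of the other Dpp6 hairpins passed as lower in the lungs, and 1 rose. TRCN0000031427 had 2.55, 2.68 and 2.60% at day 0, 3.35, 2.95 and 3.49% in culture and 10.2, 5.98 and 3.82% in the lungs. Every lung library was above every other library, with A highest. The lung rise was 2.55 times (log2 1.43 ± 0.39 SE, limma adjusted p 0.0366), lost without day 0 A (0.0786), B (0.0872) or C (0.0858), on the deposited values (0.0511) and relative to the controls (0.0548), in a range of 0.000101 to 0.0872. Its culture rise (log2 0.83, limma adjusted p 6.05e-05) was lost in the fit of all groups (0.108) and was -0.030 on the deposited values, in a range of 4.65e-21 to 0.837.

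TRCN0000031425 had 6.24, 6.07 and 6.05% at day 0, 1.78, 2.42 and 2.59% in culture and 5.83, 5.75 and 8.94% in the lungs. Culture was below both other groups, and lungs overlapped with day 0. It fell in culture (log2 -0.94 ± 0.13 SE, limma adjusted p 0.000458) and was 3.02 times higher in the lungs than in culture (log2 1.89 ± 0.26 SE, limma adjusted p 0.00207), a call lost without culture A (0.102), in a range of 1.56e-05 to 0.102. TRCN0000031424 had 1.62, 1.38 and 1.66% at day 0, 0.226, 0.211 and 0.322% in culture and 0.152, 0.910 and 0.0395% in the lungs. It was below day 0 in every library of both end states, with B the highest mouse. The culture fall was 6.14 times (log2 -2.13, limma adjusted p 9.79e-06), lost in the fit of all groups (0.0858), in a range of 1.28e-29 to 0.0858, and the lung value did not pass (log2 -2.94, limma adjusted p 0.0881).

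The calcium channel proteins showed 1 fall in both end states. Cacna2d1 is an auxiliary subunit of voltage-gated calcium channels, and its hairpin TRCN0000068996 had 1.14, 1.10 and 1.19% at day 0, 0.388, 0.389 and 0.384% in culture and 0.448, 0.518 and 0.403% in the lungs. Both end states were below day 0 in every library, 2.50 times in the lungs (log2 -1.13 ± 0.20 SE, limma adjusted p 0.0088) and 2.95 times in culture (log2 -1.04 ± 0.14 SE, limma adjusted p 0.000239). TRCN0000068997 was rare, with 2392, 1777 and 2517 reads at day 0, 2321, 42 and 2151 in culture and 0, 472 and 696 in the lungs, and did not pass (log2 -3.95 ± 2.10 SE in the lungs, limma adjusted p 0.203).

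Cacng2, or stargazin, accompanies AMPA-type glutamate receptors. TRCN0000069209 rose in culture from 0.804 to 0.905% to 1.34 to 1.62% (log2 1.30, limma adjusted p 4.23e-05), a call lost in the fit of all groups (0.0781), in a range of 1.08e-27 to 0.0781. In the lungs it had 0.803, 2.74 and 0.562%, with B above day 0 and the others at or below it. TRCN0000069208 was the rarest hairpin of the pool, with 73, 23 and 26 reads at day 0 and 94, 0 and 0 in the lungs, too few to show a difference at this depth.

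Dmd encodes dystrophin, which links actin to the cell membrane, and its hairpins went both ways in the lungs. TRCN0000077146 had 5.83, 5.34 and 5.94% at day 0, 1.90, 2.17 and 2.65% in culture and 0.840, 0.641 and 1.27% in the lungs. The 3 groups did not overlap, with the lungs lowest. The fall was 6.22 times in the lungs (log2 -2.50 ± 0.29 SE, limma adjusted p 0.00231) and 2.54 times in culture (log2 -0.85 ± 0.11 SE, limma adjusted p 0.000208), and the end states did not differ past the threshold under TMM (log2 -1.03 ± 0.36 SE, limma adjusted p 0.0786) but did, among other settings, with plain shares (0.029).

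TRCN0000077144 had 3.68, 3.29 and 3.23% at day 0, 5.14, 4.22 and 5.87% in culture and 4.67, 6.17 and 7.52% in the lungs. Both end states were above day 0 in every library and overlapped with each other. The lung rise was 1.80 times (log2 1.02 ± 0.21 SE, limma adjusted p 0.0153), lost with the replicate letter as a block (0.0563) and without lungs B (0.0512), in a range of 2.51e-05 to 0.0563. The culture rise (log2 1.08, limma adjusted p 1.32e-05) was 0.22 on the deposited values.

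TRCN0000077145 had 1.21, 1.27 and 1.12% at day 0, 3.34, 4.65 and 3.70% in culture and 0.293, 1.85 and 0.424% in the lungs. Culture was above both groups, and lungs B was above day 0 while A and C were below. It rose 3.24 times in culture (log2 2.20 ± 0.16 SE, limma adjusted p 5.28e-06) and was 4.55 times lower in the lungs than in culture (log2 -2.35 ± 0.65 SE, limma adjusted p 0.036). The latter call was lost in edgeR (0.097), without the trend and robust options (0.0723) and without lungs C (0.0546), culture B (0.0986) or culture C (0.0829), in a range of 6.84e-05 to 0.0986. TRCN0000077143 was rare, with 654, 273 and 224 reads at day 0, 607, 340 and 1490 in culture and 252, 0 and 122 in the lungs, and did not pass in any comparison on the TMM scale with all libraries.

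Dst, a plakin that links cytoskeletal filaments, had the most frequent hairpin at day 0 and the widest spread in absolute share between mice. TRCN0000088313 had 8.11, 7.45 and 8.52% at day 0, 1.95, 1.67 and 2.44% in culture and 17.0, 1.44 and 1.54% in the lungs. Lungs A was above day 0, and lungs B and C were below every library of day 0 and of culture. The culture fall was 3.97 times (log2 -1.49 ± 0.11 SE, limma adjusted p 4.74e-06), lost in the fit of all groups (0.175) in a range of 2.39e-26 to 0.175, and the lung value did not pass (log2 -1.06 ± 1.02 SE, limma adjusted p 0.459). With 1 library left out, the lung value passed as lower in 1 of 6 fits (limma adjusted p 0.0006 to 0.782). TRCN0000088314 rose in culture (log2 1.61, limma adjusted p 0.00243), a call lost on the deposited values (0.0816) and in the fit of all groups (0.158), and had 0.223, 1.10 and 0.0861% in the lungs.

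Akap9, a scaffold that anchors protein kinases at the centrosome and the Golgi, had no call in the lungs. TRCN0000088588 rose in culture from 0.0301 to 0.0373% to 0.0714 to 0.171% (log2 2.19 ± 0.48 SE, limma adjusted p 0.0041), a call lost on the deposited values (0.0621). TRCN0000088589 had 0.834 to 0.963% at day 0 and 0.517 to 0.611% in the lungs, a small difference without overlap that did not pass under TMM (log2 -0.54 ± 0.21 SE, limma adjusted p 0.1) but did with plain shares (0.0314) and on the deposited values (0.0413).

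Hairpins against the same gene did not always move together. Of the 17 genes with at least 2 hairpins, 2 (Acacb and Ehd1) had at least 2 higher in the lungs than at day 0 and none lower, and 1 (Klf5) had at least 2 lower and none higher. Another 4 (Axin1, Braf, Dmd and Dpp6) had hairpins called in both directions. Over all pools, 3.30, 4.95 and 13.2% of 303 fell in these classes, counting a gene once for each pool that tested 2 or more of its hairpins. The difference from pool 4 was not tested, and genes differ in how many hairpins they have. With the replicate letter as a block, where the lung calls went from 9 to 5 higher and stayed at 11 lower, 0 genes kept 2 higher calls without a lower one, and Klf5 kept 2 lower. With plain shares Ehd1 lost the call of TRCN0000093337 (limma adjusted p 0.097), and Acacb TRCN0000028943 passed as lower (0.0478). Neither gene then stayed in the class of 2 higher and none lower. In culture, 9 genes had calls in both directions, or 52.9%, beside 29.4% of 320 over all pools, counted the same way. Between lungs and culture, Ehd1 was the gene with 2 hairpins higher and Dpp6 the gene with calls both ways. In the groups used for counting, the lung calls were 2 higher and 0 lower of 4 for Ehd1 alone as membrane traffic (median log2 0.95), 2 and 0 of 4 for Acacb alone as metabolism (0.07) and 0 and 2 of 4 for Klf5 alone as transcription (-1.03). The 12 genes outside these groups, which include Elk3, Cdkn2b and the channel genes, had 4 and 6 of 29 (-0.77), close to the 33.8% called in the series.

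Hairpins against 13 of these genes in other pools, read in other libraries, gave a separate view of the same targets. Of 24 such hairpins tested in lungs against day 0, 1 was higher and 7 were lower, which equals the 33.8% of the series to within 1 hairpin, with a median log2 difference of -0.92, beside 2 higher and 5 lower of 23 for the pool 4 hairpins of the same genes (median -0.20). For Muc1, TRCN0000108856 in pool 2 was lower in the lungs (log2 -1.19, limma adjusted p 0.0299), as was the pool 4 hairpin. For Pcdh15, TRCN0000094902 in pool 5 was lower (log2 -1.47, limma adjusted p 0.0073), as was 1 of the 2 in pool 4. For Cacna2d1, 2 hairpins of pool 15, TRCN0000421331 and TRCN0000436790, were lower (log2 -1.23 and -5.16, limma adjusted p 0.0289 and 0.0073).

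For Cdkn2b the only other pool with its hairpins, pool 14, did not repeat the rise. Mean r between the lung libraries of pool 14 was 0.724, beside a median of 0.903 over the 17 pools with lung libraries. The Akap9 and Adam8 hairpins named below were in pool 14 too. In pool 14, TRCN0000362420 was lower in the lungs (log2 -2.39, limma adjusted p 0.0249) and TRCN0000362499 did not pass (log2 0.33). For Akap9, TRCN0000362770 of pool 14 was the single hairpin that was higher (log2 3.72, limma adjusted p 0.0234). For Adam8, TRCN0000351178 was lower (log2 -2.37, limma adjusted p 0.0478), and for Cacng2, so was TRCN0000428781 of pool 15 (log2 -1.69, limma adjusted p 0.0367). For Braf, TRCN0000022593 of pool 2 had a log2 difference of -4.52 and did not pass (limma adjusted p 0.0679).

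Single control hairpins also differed between lungs and day 0. In reads per 100 pool 4 targeting reads, written as percent, the first non-targeting hairpin (SHC002_SHC202) went from a mean of 25.8% at day 0 to 33.2% in the lungs, and the other (SHC016_SHC216) from 6.25 to 0.629%. The hairpin against GFP went from 4.60 to 3.21% and that listed as PIK3CA from 3.95 to 0.689%. The hairpin against Cdkn1b, another inhibitor of cyclin-dependent kinases, went from 12.4 to 34.5%, and that listed as MUC1 from 6.23 to 2.22%. The log2 ratios were 0.36, -3.31, -0.52, -2.52, 1.48 and -1.49, each with an exact two-sided permutation p of 0.1, the smallest that 3 libraries against 3 allow. The non-targeting hairpins thus differed from day 0 in opposite directions without overlap, and the value of SHC016_SHC216 was of the size of the lung value of Dpp6 TRCN0000031426 with plain shares (log2 -3.49). All 8 controls together came to 78.1% at day 0 and 78.6% in the lungs (log2 0.01, exact permutation p 1). A further 2 control hairpins are not described singly here. For culture no ratio of controls to pool 4 alone is given here, since the controls there serve pools 4 and 5 at once.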

How the data were processed

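Hairpins were amplified from genomic DNA by PCR and sequenced, per the labels' protocols, and the submitters' processing notes name BWA 0.5.9. The authors deposited, for each library, a normalised read signal per hairpin, and how it was counted and normalised is not given in the sources used here. No genome build is named, so no coordinates are given, and hairpin sequences were not used here. Every signal value was divided by the smallest of its library, which was set to 1 read. This gave whole numbers, to within 0.01 reads, for 27241 of 27241 values (100.0%), among them all 1780 of the libraries described here. Another 10 libraries of the series, with no values, and 3 starred control features were left out.

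Groups came from the sample titles. CPM values were taken over the pool's own targeting reads with TMM (edgeR 4.0.16), and log2(value + 1) was fitted in limma 3.58.1 (trend and robust options, R 4.3.3) with 2 groups per fit, for hairpins with a mean of at least 10 reads. The Benjamini-Hochberg adjustment covered the hairpins tested in every pool, and a call needed an adjusted p below 0.05. The fit was tested on simulated data. Alternatives were edgeR and DESeq2 1.42.0 on the recovered reads, other scalings, a pseudocount of 10, other filters, all groups in 1 fit, the replicate letter as a block and each library left out.

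The replicate letters were checked for pairing: deviations of same-letter libraries from their group means correlated at 0.35, 0.12 and 0.27 (letters A, B and C) for lungs with day 0 and at 0.20, 0.21 and 0.16 for culture with day 0, each over 51 hairpins. By the rule that every pair exceeds 0.1 these letters were taken to pair the libraries, although the correlations were weak. The main fits nevertheless used no block, which was run as an alternative. The pairing comes from the labels' letters and this check, not from a stated shared infection.

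The rule for naming allowed every hairpin of the pool, with values in each library for hairpins called in a comparison with the lungs and for genes with at least 2 hairpins called the same way, the others by range, and from other pools only hairpins of the same genes. Of the controls, 2 are not reported singly. All 21 gene symbols were found in RefSeq's gene table. The members and lists were chosen with earlier results of these data known.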

Additional observations from a re-analysis of the deposited data

Results flagged for a closer look

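Reads of hairpins from pools that a library should not hold were 0.697% of all reads in lungs A and 0.457% in lungs C, above the highest day 0 value of 0.402%. They stand out as signal outside the pool 4 hairpins.

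For 3 hairpins the change from day 0 had opposite directions in the lungs and in culture, both past the threshold, and the direct comparison of lungs with culture passed as well. TRCN0000028941 against Acacb was 2.95 higher in the lungs than in culture on the log2 scale. TRCN0000054983 against Axin1 differed by -2.63. TRCN0000090002 against Col5a1 differed by -1.14, and its rise in culture did not pass with plain shares (log2 0.12, limma adjusted p 0.406).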

How the results depend on the processing

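The lung count of 20 calls lay between 16 and 27 under the alternatives that kept all libraries and between 15 and 23 with 1 library left out. With the replicate block it was 16 for lungs against day 0 and 36 for culture against day 0, where the letters passed the rule for pairing. Apart from the lost and gained calls named beside their hairpins, the block changed no other call in these comparisons. For lungs against culture, where same-letter deviations correlated at -0.01, 0.08 and 0.12, the letters are only shared names, and the block gave 11 calls in place of 12. The culture count of 34 fell to 18 with all groups in 1 fit and lay between 30 and 37 with 1 library left out. The count of 12 for lungs against culture rose to 21 with all groups in 1 fit and lay between 5 and 16 with 1 library left out, the lowest without culture A. All groups in 1 fit share an estimate of spread. The other counts stayed within 1.5 times their value.

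The deposited values and the scaling to the controls lower the culture values of well-covered hairpins by nearly the same amount, and the controls there serve pool 5 as well. TMM raises the culture values by 0.51 relative to plain shares, so the direction of a small culture change depends on the scaling. Signs turned by the deposited values or the controls come with these shifts. The turned signs affect 6 hairpins that had passed as higher in culture against day 0, with log2 values on these scalings of -0.11 and -0.24 for Adam8 TRCN0000031786, -0.030 and -0.15 for Dpp6 TRCN0000031427, -0.23 and -0.36 for Col5a1 TRCN0000090002 and -0.083 and -0.21 for Acacb TRCN0000028942. The values were -0.46 and -0.58 for both Braf TRCN0000054346 and Elk3 TRCN0000042643, each also -0.11 with plain shares. On the deposited values and relative to the controls both passed as lower (limma adjusted p 0.0066 and 0.00268 for Braf, 0.0046 and 0.00186 for Elk3). No called hairpin turned sign in the lung comparisons. All 18 alternatives kept 14 of 20, 13 of 34 and 4 of 12 calls for lungs against day 0, culture against day 0 and lungs against culture.

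The difference in effective number of hairpins between lungs and culture, 0.0906, became 2.17 with control hairpins included (exact permutation p 0.1, the smallest possible), 1.11 by the inverse Simpson index and 0 when hairpins of at least 1 read per 1000 were counted, and ranged from -1.04 (without lungs B) to 0.791 (without culture C) with 1 library left out. The differences from day 0 kept their sign, at -8.50 to -6.78 for lungs and -8.16 to -7.05 for culture with 1 library left out, and -10.7 and -12.8 with control hairpins included. Counting hairpins of at least 1 read per 1000 they were -2.67 in both, with libraries that overlapped with day 0 (exact permutation p 0.4 and 0.2). Depth limits the rarest hairpins: 3 reads were about 7.5e-05% of the pool 4 reads of a lung library.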
